A study of Mus musculus with 5 samples.

Results

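The dendritic cells of mouse PyMT mammary tumours were chosen by the transcripts of 5 genes, and 50 of the 15958 cells in 5 single-cell libraries met the rule, which is 0.313% of all cells. A cell was taken when its unique molecular identifiers (UMIs, each a counted molecule) for Flt3, Xcr1, Clec9a, Ccr7 and Cd209a summed to at least 2. It also had no UMI of Cd3d, Cd3e or Cd3g, fewer than 10 UMIs of the C1q genes per 10000 of its total, and fewer than 8 UMIs of Krt8, Krt18 and Epcam per 10000. Because the members were selected on these counts, the levels of these genes are descriptions and were not tested.

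The tumours carry the polyoma middle T antigen (PyMT) and were digested and enriched for viable cells. They were then run on 10x Chromium 3′ v2, which captures cells in droplets, or on BD Rhapsody, which captures them in microwells. Fresh 10x 1 and fresh 10x 2 are replicates of fresh tissue, and stored 10x came from a digest held in the cold, 24 h by its title. BD 1 is labelled fresh, and BD 2 is titled fresh while its files are named for 24 h, so no storage state was assumed for it. The sources used here do not give the promoter of the transgene, the strain or age of the mice, or how many mice each library came from. Only fresh 10x has 2 samples of a group, and nothing says that they came from separate animals. P-values therefore measure only the spread between these samples, which may be technical.

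Dendritic cells take up antigen, present it on MHC class II molecules and carry it to T cells. Conventional type 1 cells display the chemokine receptor Xcr1 and the dead-cell receptor Clec9a, depend on the transcription factors Irf8 and Batf3, and are known for presenting tumour antigen to CD8 T cells. Type 2 cells carry lectins such as Clec10a and the integrin Itgam and favour CD4 T cells. Mature cells switch on Ccr7, which guides them to lymph nodes, together with the actin-bundling protein Fscn1 and the chemokine Ccl22. Plasmacytoid cells, marked by Siglech and the transcription factor Tcf4, are specialised in making type I interferon. Flt3 is the receptor for the growth factor that sustains these lineages, and Cd209a is a C-type lectin of the DC-SIGN family found on some dendritic cells and monocyte-derived cells.

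Fresh 10x 1 and fresh 10x 2 together held 4000 cells. In fresh 10x 1 the gate took 0 cells, which allows a share of up to 0.145% (3 counts of the total) and by the exact interval one of up to 0.178%. In fresh 10x 2 it took 7 cells, 0.364% with an exact (Clopper-Pearson) 95% binomial interval of 0.146 to 0.748. Stored 10x held 4 of 4000, 0.100% with an interval of 0.0273 to 0.256. BD 1 held 21 of 3772, 0.557% with an interval of 0.345 to 0.850, and BD 2 held 18 of 4186, 0.430% with an interval of 0.255 to 0.679. The fresh 10x mean was 0.182% ± 0.257 (SD, n = 2). Its 2 replicates lay on either side of stored 10x, so a storage difference was not detectable, and no test of shares was made with 1 library in each other group. The intervals cover counting error only.

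**Figure D1:**
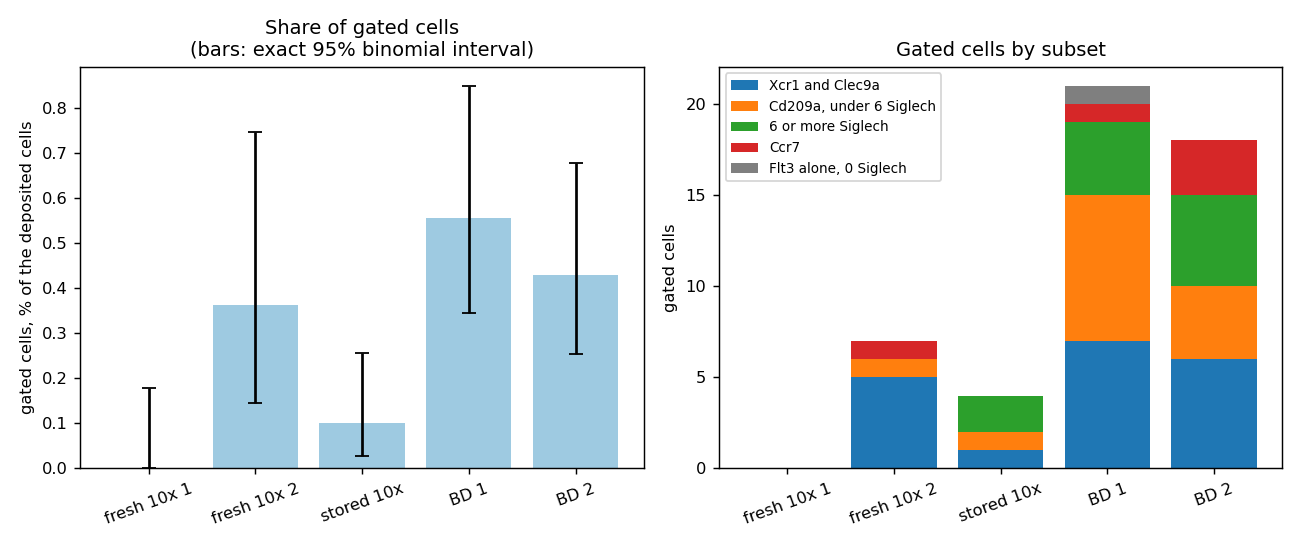
Left, gated cells as a percent of the deposited cells of each library, with exact 95% binomial intervals as error bars. Right, the number of gated cells of each library by subset. Fresh 10x 1 has none, and BD 1 and BD 2 hold 39 of the 50.

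Counting depth bears on these shares. Fresh 10x 2 had a median of 9677 UMIs per gated cell and stored 10x one of 5885.5, while the medians of BD 1 and BD 2 were 7784 and 6338. When every cell was thinned to 2000 UMIs and shallower cells were left out, 0, 2, 1, 14 and 10 cells stayed in the gate, in the order fresh 10x 1, fresh 10x 2, stored 10x, BD 1 and BD 2. Flt3 supplied few of the 10x calls: the gated cells held 0 Flt3 UMIs in fresh 10x 2 and 3 in stored 10x, against 47 in BD 1 and 34 in BD 2. Among cells over the keratin limit, which should lack these genes, 0 of 1448 in fresh 10x 1 and 0 of 1472 in fresh 10x 2 had 2 UMIs of the gate genes. The count was 1 of 3196 in stored 10x, 3 of 2832 in BD 1 and 5 of 3203 in BD 2, at median depths of 10195 to 13304 UMIs. A total of 84 cells reached 2 UMIs, and 34 were lost to the exclusions, 26 of them carrying Cd3 transcripts. Just inside the rule stood 7 cells with exactly 2 UMIs, and 21 cells with 1 UMI that met the other limits stood just outside.

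The label was checked against lineage markers. All 12 genes of a dendritic lineage list had UMIs in the gated cells. All 12 also had UMIs in the other cells of each library with gated cells, so detection alone does not tell the cells apart. The list summed to 92.5 to 511 per 10000 of the gated cells of a library, against 14.1 to 20.3 in the other cells. Cells over the C1q limit held 103 to 129, and in stored 10x the gated cells lay under them, at 92.5 against 110. Most UMIs of the list in gated cells were of Cst3, with 6997, a gene that had 198101 over all cells. The sum thus speaks mainly for that gene. Zbtb46, a transcription factor of conventional dendritic cells, had 28 UMIs in 16 cells, and Itgax, the integrin CD11c, had 108 UMIs in 31 cells. Of other cell types, 6 of 6 B cell genes and 5 of 5 mast cell genes were at 0. Of the 8 T cell genes 6 had UMIs, at 0 to 7.74 per 10000 of the gated cells of a library against 0.238 to 0.808 in other cells, the highest in stored 10x. Most were of the coreceptor gene Cd8a, whose 34 UMIs lay in 5 cells that all had 6 or more Siglech UMIs, and of Cd4 with 14, while the receptor genes Trac and Trbc2 were at 0 and Trbc1 had 5. The 7 NK genes summed to 0.465 to 2.39 per 10000, above the other cells of each library (0.184 to 0.388), with 34 UMIs from Klrk1. The 5 plasma cell genes summed to 0.149 to 1.24, against 0.205 to 15.4 in the other cells. Neutrophil genes reached 2.75 per 10000 in BD 1, through Il1r2, a decoy receptor for interleukin 1, with 62 UMIs over all gated cells of which 36 lay in 1 cell, while S100a8 and S100a9 were at 0. The macrophage genes Cd68 and Csf1r had 104 and 73 UMIs, and Fcgr1 and Mertk had 0. The 9 macrophage genes together made up 1.34 to 7.80 UMIs per 10000 of the gated cells of a library, against 214 to 491 in cells over the C1q limit. All 7 epithelial genes had UMIs, at 2.84 to 5.53 per 10000 of the gated cells against 184 to 232 in all other cells. The rule had removed cells with Cd3 transcripts and cells high in C1q or keratin transcripts. Low T cell receptor, macrophage and epithelial counts follow in part from these exclusions and are no separate check of the label. Monocyte genes were present at 6.57 to 50.9 per 10000, with 5 of 7 detected, against 1.57 to 4.28 in the other cells. Cells over the C1q limit held 51.9 to 74.3, and in stored 10x the gated cells nearly reached them, at 50.9 against 51.9. No doublet caller was run, and the deepest gated cell held 24708 UMIs in BD 1, where the median cell held 12474. Gated cells had median mitochondrial shares of 3.50% and 4.58% in fresh 10x 2 and stored 10x and of 7.99% and 11.0% in BD 1 and BD 2, and 8 gated cells exceeded 20%. Libraries shared at most 24 barcodes, between BD 1 and BD 2, and 0 gated cells were among them.

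Each gated cell was assigned by its UMIs of Xcr1 plus Clec9a, of Cd209a and of Ccr7, whichever was highest. Flt3, which the lineages share, was left out of this choice, so 3 cells of BD 1 with more Flt3 than Cd209a UMIs count as Cd209a cells, and a cell was a Flt3 cell where it had UMIs of no other gate gene. This gave 19 Xcr1 and Clec9a cells, 23 Cd209a cells, 5 Ccr7 cells and 3 cells with Flt3 alone, with 0 ties among the 3 sums. Fresh 10x 2 held 5 Xcr1 and Clec9a cells, 1 Cd209a cell and 1 Ccr7 cell. Stored 10x held 1 Xcr1 and Clec9a cell, 2 Cd209a cells and 1 Flt3 cell. BD 1 held 7 Xcr1 and Clec9a cells, 12 Cd209a cells, 1 Ccr7 cell and 1 Flt3 cell, and BD 2 held 6, 8, 3 and 1 of these. Cells are numbered below in the order of each matrix.

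**Figure D2:**
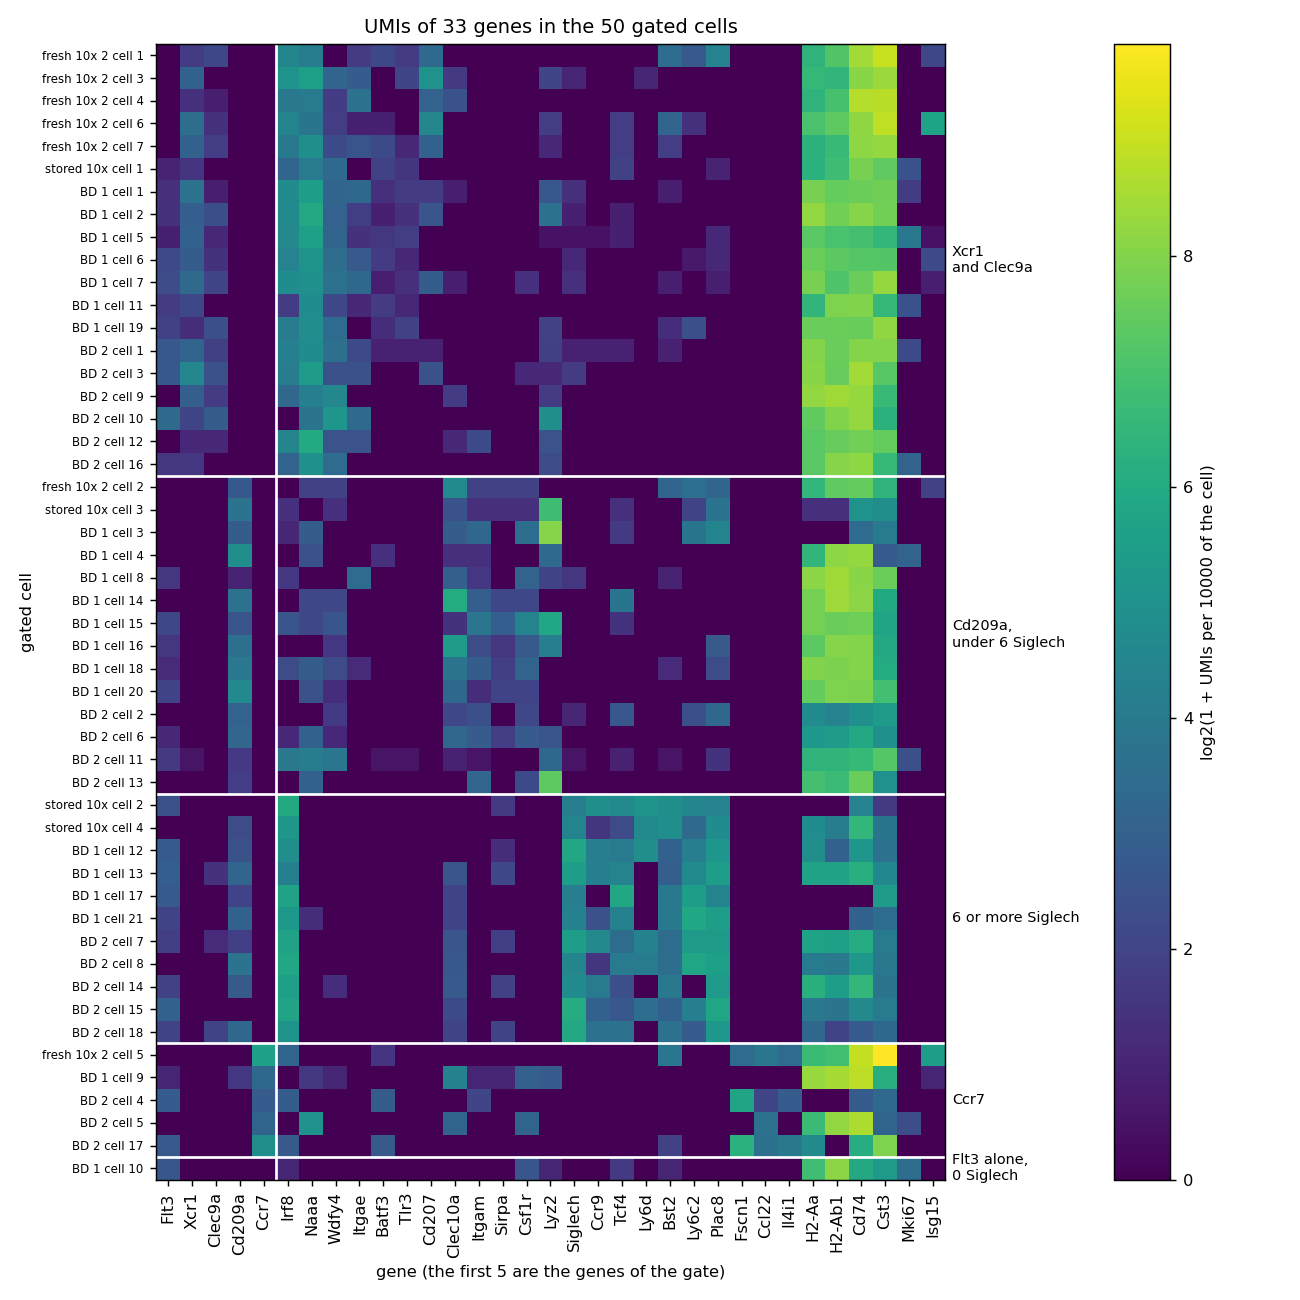
Each row is 1 of the 50 gated cells and each column 1 of 33 genes, coloured by log2(1 + UMIs per 10000 of the cell). Rows are grouped by subset, with the 11 cells of 6 or more Siglech UMIs in a block of their own. Naaa and Irf8 fill the first block, Siglech to Plac8 the third, and Fscn1, Ccl22 and Il4i1 are seen in the Ccr7 block alone.

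In the Xcr1 and Clec9a cells, Naaa, a lysosomal amidase used as a type 1 marker, had UMIs in 19 of 19 cells with a median of 24 and a highest value of 115. Irf8 had UMIs in 18 of 19 cells (median 19, highest 58), and Wdfy4, a protein needed for cross-presentation, in 18 of 19 (median 8, highest 19). Itgae, the integrin CD103, was found in 15 of 19, Batf3 in 12 and Tlr3, the receptor for double-stranded RNA, in 12. Siglech stayed at 2 UMIs or fewer in all 19. The 10 MHC class II genes made up 425 to 983 UMIs per 10000 in these cells (median 611), so none of the 19 was low in them. Cd207, the lectin langerin, had UMIs in 10 of the 19 cells and in no other gated cell, with 81 of its 103 UMIs in fresh 10x 2. Mki67, a gene of dividing cells, was detected in 6 of the 19 cells with 55 UMIs in all, of which 35 lay in BD 1 cell 5, the deepest gated cell.

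The Cd209a cells did not form a single pattern. Siglech counts across the 50 cells left a gap, with 28 cells at 0, 11 cells at 1 or 2, and 11 cells between 6 and 39, and of the last 11, 9 were Cd209a cells and 2 were Flt3 cells. A line at 6 UMIs was drawn after these values were seen, so what follows for the 2 kinds of Cd209a cell is a description without a test. The 14 Cd209a cells under the line carried Itgam in 14 of 14 cells (median 3 UMIs), Clec10a in 13 (median 6, highest 39) and Csf1r, the receptor of macrophage growth factor, in 12 (median 3). Lyz2, the lysozyme of monocytes and macrophages, was uneven among them, with 529 UMIs of which 244 lay in BD 1 cell 3 and 136 in BD 2 cell 13. MHC class II genes ranged from 9.74 to 911 per 10000 in the 14 cells (median 562). BD 1 cell 3 lay at the bottom of that range with 9 Cd74 UMIs and 0 of H2-Aa, and stored 10x cell 3, with 71 Lyz2 UMIs, had 21 and 1. BD 2 cell 11, the deepest gated cell of that library with 23491 UMIs, held 5 Cd209a UMIs beside 1 of Xcr1, 34 of Irf8, 39 of Naaa and 32 of Wdfy4.

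The 11 cells with 6 or more Siglech UMIs shared genes that the rule did not use. Irf8 had UMIs in 11 of 11 cells (median 25), Tcf4 in 11 (median 9), Bst2, a surface protein of plasmacytoid cells, in 11 (median 6), and Ccr9, a gut-homing chemokine receptor, in 10 (median 4). Plac8 was found in 11 of 11 (median 26). Atp1b1, a subunit of the sodium pump, was found in 10 of these cells with 153 UMIs and in no other gated cell. Naaa had 1 UMI over the 11 cells, and Itgam, Csf1r, Lyz2, Itgae, Batf3, Tlr3 and Zbtb46 had 0. The 10 plasmacytoid genes summed to 67.4 to 206 UMIs per 10000 in these cells, while in the 39 others they ranged from 0 to 28.9. Siglech is 1 of the 10, so part of this gap follows from how the cells were set apart. MHC class II genes were lower in them, at 2.92 to 213 per 10000 (median 72.7), all under the lowest Xcr1 and Clec9a cell. These cells came from stored 10x (2), BD 1 (4) and BD 2 (5), and none of the 7 gated cells of fresh 10x 2 was of this kind. More cells with 6 or more Siglech UMIs lay outside the gate, 2 in stored 10x, 9 in BD 1, 4 in BD 2 and 0 in both fresh 10x libraries, so the rule captures only some of them. Among keratin-high cells, at least 1 Siglech UMI was seen in 0.0626% in stored 10x to 0.353% in BD 1. Tcf4 was far more common there, with at least 1 UMI in 37.4% in BD 2 to 56.1% in fresh 10x 2. Detection of Tcf4 alone would thus not mark a plasmacytoid cell.

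**Figure D3:**
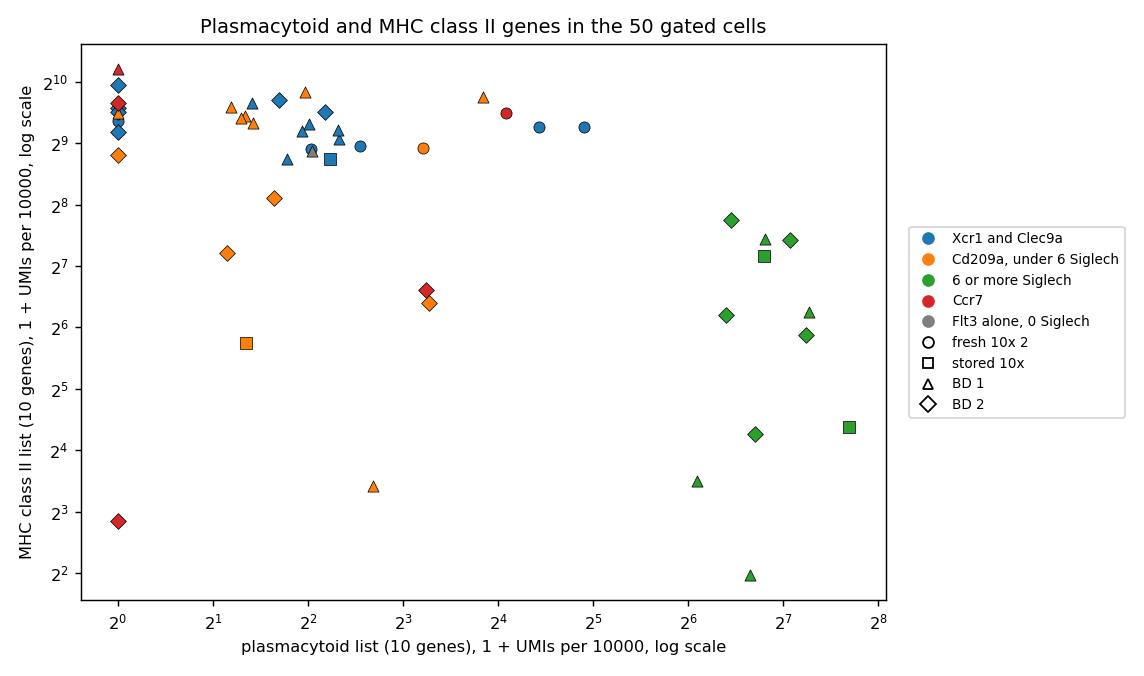
Each point is 1 gated cell. The horizontal axis is the sum of 10 plasmacytoid genes and the vertical axis the sum of 10 MHC class II genes, both as 1 + UMIs per 10000 of the cell on a log scale, with colour for the subset and shape for the library. The 11 cells of 6 or more Siglech UMIs stand to the right, at 67.4 to 206 per 10000 for the plasmacytoid genes, with MHC class II at 213 per 10000 or less.

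The 5 Ccr7 cells were unlike each other. Fresh 10x 2 cell 5 had 55 Ccr7 UMIs with 11 of Fscn1, 15 of Ccl22, 11 of Il4i1, an amino acid oxidase of mature dendritic cells, and 34 of Il12b, a subunit of interleukin 12. BD 2 cell 17 had 10 Ccr7 UMIs with 27 of Fscn1 and 24 of Cacnb3, and BD 2 cell 4 had 2 Ccr7 UMIs with 17 of Fscn1 and 42 of Ccl5, a chemokine for T cells. These 3 cells held all 55 Fscn1 UMIs of the gated cells. BD 1 cell 9 had 9 Ccr7 UMIs but 0 of Fscn1 and Ccl22, with 19 of Clec10a and 40 of Il1b, while 7 of the 20 mature genes had UMIs, at 34.2 per 10000 in all. BD 2 cell 5 had 2 Ccr7 UMIs, 0 of Fscn1 and 3 of Ccl22, and 50.4% of its 2496 UMIs were mitochondrial. The sums of MHC class II genes spread as widely, from 6.21 per 10000 in BD 2 cell 4 to 1178 in BD 1 cell 9. Keratin-high cells also carried Fscn1, with at least 1 UMI in 2.11% to 4.77% of them by library at median depths above those of the gated cells, so single Fscn1 UMIs would not mark a mature cell. The third Flt3 cell, BD 1 cell 10, had 5 Flt3 UMIs, 0 of Siglech, 106 of H2-Aa and 10 of Mki67.

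Against all other cells of the same library, the 20 leading genes held 4 class II genes, the type 1 genes Irf8, Naaa and Wdfy4, and many genes that leukocytes or myeloid cells share. These ratios describe the gate and carry no test, since a gated group must differ from the rest. Irf8 ranked first, with 1718 CPM, counts scaled to a common library total, in the gated cells of fresh 10x 2 against 10.5 in the other cells, 2101 against 8.04 in stored 10x, 1442 against 15.6 in BD 1 and 1891 against 11.8 in BD 2. Its lowest log2 ratio over the 4 libraries was 5.82, and that of Naaa was 5.17, with 10 CPM added to each value. Alox5ap, the activator of leukotriene synthesis (4.76), Wdfy4 (4.67), the ribonuclease Rnase6 (4.65) and the class II chain H2-Ab1 (4.54) followed. The other class II genes among the 20 were H2-Aa, Cd74 and H2-DMa, and the remaining genes were Plbd1, Napsa, Coro1a, Cd52, Cbfa2t3, Ly6c2, Pld4, Selplg, Mpeg1, Lsp1 and Tyrobp. Set against the C1q-high macrophages of the same libraries, the class II genes no longer led, since the log2 ratio of H2-Ab1 was 0.78 and 0.71 in fresh 10x 2 and BD 1 but -0.85 and -0.24 in stored 10x and BD 2. Naaa kept a lowest ratio of 3.03 against these macrophages, Wdfy4 of 3.13 and Irf8 of 2.07.

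Cd209a cells and Xcr1 and Clec9a cells were then compared as sums of at least 5 cells per library, with the library in the model and without the genes of the rule. Fresh 10x 2 gave an Xcr1 and Clec9a sum and BD 1 and BD 2 gave both sums, which left 1 residual degree of freedom. As fresh 10x 2 has no Cd209a sum, with the library term each difference is estimated from BD 1 and BD 2 alone. The fresh 10x 2 values below are descriptions. Of 2027 genes tested with edgeR's quasi-likelihood test, 125 were called at a Benjamini-Hochberg adjusted p under 0.05, which is 6.17%. A total of 73 genes (3.6%) were higher in Cd209a cells and 52 (2.57%) were lower. The Cd209a sums hold both kinds of cell described above, 8 under and 4 over the Siglech line in BD 1 and 4 of each in BD 2. A gene can pass the count filter through the subset where it is high. The list medians and counts of called members below are therefore descriptions and no test of a list.

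Of the type 1 list, 12 of 15 genes were tested and 7 were lower in Cd209a cells, with a list median log2 difference of -2.70 against 0.02 over all genes tested. Naaa stood at 22.9 UMIs per 10000 in the Xcr1 and Clec9a sum of fresh 10x 2, 40.0 in BD 1 and 35.8 in BD 2, against 2.72 and 6.99 in the Cd209a sums of BD 1 and BD 2. The groups did not overlap, and the log2 difference was -3.12 ± 0.29 (SE; edgeR adjusted p = 1.07e-23). Ppt1, a lysosomal thioesterase, read 15.8, 13.5 and 13.6 against 1.23 and 2.19 per 10000, a log2 difference of -3.06 ± 0.38 (edgeR adjusted p = 4.77e-13). Sept3, Rab7b, Itgae, Cd24a and Wdfy4 were the other called members. Irf8 was tested and not called (-0.36 ± 0.28, edgeR adjusted p = 0.661), and it is high in both the Xcr1 and the Siglech cells in the plot of genes by cell. Cd207 was called lower, with 15.6, 1.78 and 1.21 per 10000 in the Xcr1 and Clec9a sums and 0 in the Cd209a sums. Most of its UMIs came from fresh 10x 2, which has no Cd209a sum, and without that library it was not tested.

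The plasmacytoid list went the other way, with 9 of 10 genes tested and 7 higher in Cd209a cells (list median 3.74). Siglech read 0.192, 0.836 and 0.726 UMIs per 10000 in the Xcr1 and Clec9a sums and 10.6 and 11.8 in the Cd209a sums, a log2 difference of 3.74 ± 0.53 (edgeR adjusted p = 2.75e-10). Tcf4 rose by 4.46 ± 0.71 (edgeR adjusted p = 3.48e-08) and Ccr9 by 4.45 ± 0.85 (edgeR adjusted p = 1.22e-05), and Ly6d, Klk1, Runx2 and Bst2 were also called. These sums include the cells with 6 or more Siglech UMIs, which hold most UMIs of these genes. In the Xcr1 and Clec9a sums Klk1 had 0 UMIs, Ly6d 1 and Ccr9 2. Such genes were tested only through their Cd209a counts, so the list median had to be positive for them. From the type 2 list 8 of 12 genes were tested and 2 were higher. Clec10a read 1.54, 0.209 and 0.484 against 12.1 and 3.29 per 10000, a log2 difference of 4.66 ± 0.70 (edgeR adjusted p = 4.45e-09), and Itgam was higher by 3.57 ± 0.85 (edgeR adjusted p = 9.49e-04). Of the other type 2 genes, Sirpa (6.32 ± 2.34, edgeR adjusted p = 0.0916) and Mgl2 (2.64 ± 1.41, edgeR adjusted p = 0.366) did not pass.

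Monocyte genes moved with the Cd209a cells, 3 of 5 tested being higher, namely Lyz2, Plac8 and Ly6c2, with a list median of 5.10. These genes did not mark the same cells, since the cells of 6 or more Siglech UMIs carried Plac8 but no Lyz2. The monocyte list had a median of 73.1 per 10000 in the 9 Cd209a cells over the Siglech line and 20.0 in the 14 under it. Lyz2 read 1.34, 2.51 and 4.84 against 36.7 and 22.1 per 10000, and its UMIs were concentrated in a few cells, as above. Csf1r of the macrophage list was higher by 4.00 ± 0.87 (edgeR adjusted p = 1.85e-04). The part of monocyte-derived cells in these differences was not tested. Among chemokines, Ccl3 read 0, 1.04 and 0 against 12.5 and 8.09 per 10000 and Ccl4 0, 8.04 and 13.6 against 23.1 and 31.7, and both were called higher, as was the receptor Ccr1. In BD 1, 50 of the 101 Ccl3 UMIs of the Cd209a sum lay in cell 3. Cxcl16, a chemokine for Cxcr6 carriers, was lower, at 7.11, 2.09 and 5.33 against 1.36 and 0.137 per 10000 (-2.17 ± 0.60, edgeR adjusted p = 0.00734). Cxcl2, a neutrophil-attracting chemokine, was called with 77 UMIs in BD 1 and 0 in BD 2, and 60 of them lay in BD 1 cell 3. Cybb, a subunit of the phagocyte oxidase, and Atp1b1 had 0 UMIs in the Xcr1 and Clec9a sums and were at least 45.5-fold and 54.5-fold higher against a floor of 3 counts over the group.

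Antigen presentation genes were lower in Cd209a cells for 3 of 10 class II genes tested. H2-Aa read 94.5, 197 and 225 UMIs per 10000 in the Xcr1 and Clec9a sums against 130 and 62.5, so the groups overlapped, since the 10x value lies under a Cd209a value. Within each BD library the Cd209a sum was the lower, and the log2 difference was -1.26 ± 0.21 (edgeR adjusted p = 1.74e-07). H2-Ab1 differed by -1.01 ± 0.21 (edgeR adjusted p = 1.09e-04), although its BD 1 sums were 169 and 170 per 10000. Cd74 differed by -1.01 ± 0.20 (edgeR adjusted p = 3.95e-05). Of 7 costimulation and checkpoint genes tested, Cd86, Cd83 and Havcr2, the receptor TIM-3, were lower. Cd86 had 51, 29 and 3 UMIs in the Xcr1 and Clec9a sums of fresh 10x 2, BD 1 and BD 2. Its Cd209a sums held 3 in BD 1 and 3 in BD 2. Under alternative settings the calls held in 2 of 6 for Cd86, 2 of 7 for Cd83 and 2 of 6 for Havcr2. Id2, a regulator required for type 1 cells, read 13.4, 20.2 and 14.0 against 3.09 and 3.15 per 10000.

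Without the cells of 6 or more Siglech UMIs, an alternative added after the values were seen, 48 genes were called, 45 of them among the 125. Naaa (-2.58), Ppt1 (-2.96), Clec10a (4.87), Itgam (4.08) and Lyz2 (3.59) were still called, whereas H2-Aa (-0.91, edgeR adjusted p = 0.0686), Cd74 (-0.67, edgeR adjusted p = 0.330) and Ly6c2 (2.70, edgeR adjusted p = 0.552) were not. Of the 7 plasmacytoid genes only Bst2 had the counts to be tested without those cells, and it was not called (0.03, edgeR adjusted p = 0.996). The difference of Ccl4 became 0.15 and was not called. With 1 residual degree of freedom the test leans on the spread shared across genes, and DESeq2 called 10 of the 125 genes and no others, among them Naaa, Ppt1, Id2, Cst3, Siglech, Lyz2, Plac8 and Ly6c2.

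**Figure D4:**
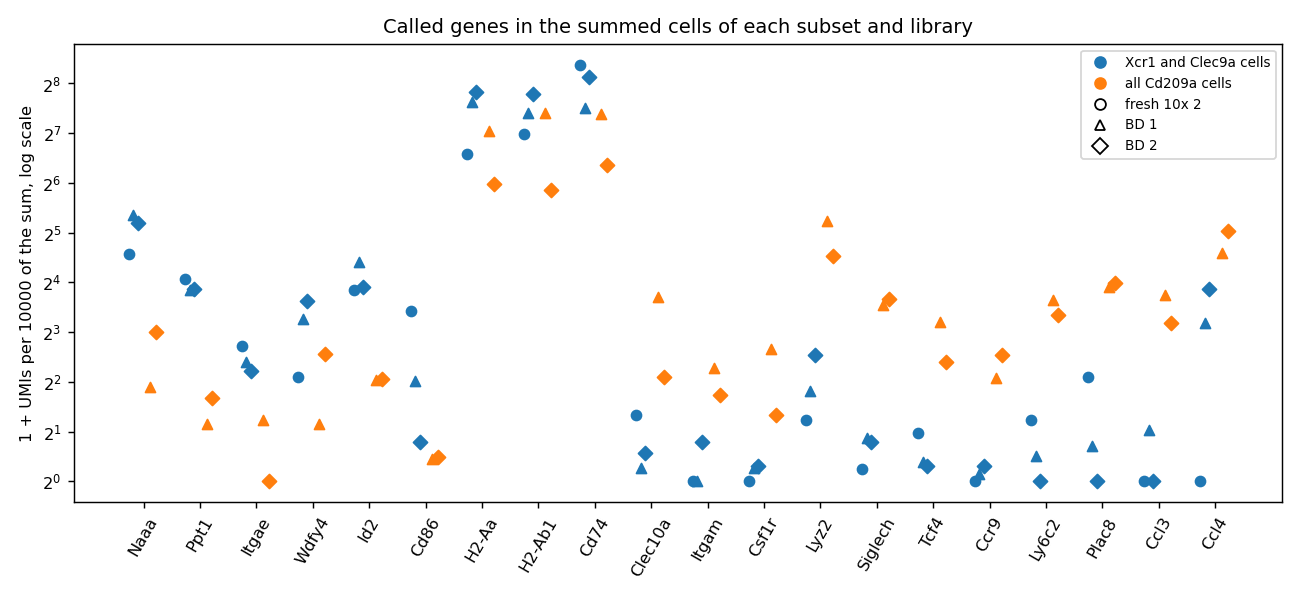
UMIs per 10000 of the summed Xcr1 and Clec9a cells (blue; fresh 10x 2, BD 1, BD 2) and of all summed Cd209a cells (orange; BD 1, BD 2) for 20 called genes, as 1 + value on a log scale, with 1 point per library and subset. Naaa, Ppt1 and Id2 separate the subsets downwards and Siglech, Lyz2 and Plac8 upwards, while H2-Aa and H2-Ab1 overlap.

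Between platforms, the gated cells of fresh 10x 2 and stored 10x were compared with those of BD 1 and BD 2, fresh 10x 1 having none. Of 1657 genes tested, 25 were called by edgeR (1.51%), 6 higher (0.362%) and 19 lower (1.15%) on BD Rhapsody, and 455 had an unadjusted p under 0.05. The lower genes were mostly of the translation machinery: 13 of 83 ribosomal protein genes were lower and 0 higher, with a list median log2 difference of -1.30 against 0.10 over all genes tested. Rps10 read 45.0 and 28.4 UMIs per 10000 on 10x (fresh 10x 2, stored 10x) and 0.968 and 0.620 on BD (BD 1, BD 2), a log2 difference of -5.74 ± 0.61 (edgeR adjusted p = 0.00995). In a test of whether the platform difference of gated cells departed from that of the other cells, 0 of 95 ribosomal protein genes passed by edgeR, with a list median of -0.11. Rps2 and Myl12b were also lower, and Atp5o.1, 1110008F13Rik and 2010107E04Rik are listed at 0 in the gated cells of both BD libraries. A gene name missing from a matrix also reads 0 here, and whether that holds for these names was not tested. Irf7, a member of both the plasmacytoid and the interferon-stimulated lists, had 32, 5, 9 and 3 UMIs in fresh 10x 2, stored 10x, BD 1 and BD 2. Its log2 difference was -3.54 ± 0.70 (edgeR adjusted p = 0.0478). Of its 32 UMIs in fresh 10x 2, 22 came from cell 6, and without that library the difference was -2.27 (edgeR adjusted p = 0.381).

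Higher on BD were the chemokine Ccl3, with 0 and 1 UMIs on 10x against 121 and 61, or 0, 0.369, 6.17 and 4.73 per 10000 (log2 difference 5.26 ± 0.90, edgeR adjusted p = 0.0404). The ratio of its summed UMIs was 52.6 with an exact interval of 9.33 to 2090, since the 10x cells held 1 UMI. Nrros, a myeloid regulator of reactive oxygen species, had 0, 1, 80 and 50 UMIs (4.81 ± 0.93, edgeR adjusted p = 0.0460). The mitochondrial mt-Nd5 read 2.39, 4.05, 32.1 and 48.9 per 10000 and mt-Nd3 0.747, 5.53, 32.1 and 43.2, beside the higher mitochondrial share of all BD cells, with medians of 15.2% and 19.8% against 6.14% to 7.17% on 10x. Subsets were mixed in unlike numbers on the 2 platforms, 6 Xcr1 and Clec9a and 3 Cd209a cells on 10x against 13 and 20 on BD, and composition and platform cannot be told apart in this comparison. None of the 10 tested type 1 genes, 10 class II genes, 10 class I genes or 4 type 2 genes was called, with list medians of 0.42, -0.41, -0.92 and 2.56.

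The platform difference departed from that of the other cells for 14 of 16064 genes by edgeR (0.0872%). The departure, gated minus other cells and BD minus 10x, was negative for 9 and positive for 5. The log2 departure had a median of 0.50 over all genes with the main scaling, 0.32 with RLE size factors and -0.46 with DESeq2, so each value below is to be read against that shift. From the interferon-stimulated list 3 of 15 genes were called lower, Isg15, Ifit2 and Rsad2, and with them Oasl1 and the chemokines Cxcl9 and Cxcl10, which attract T cells. The gated cells of fresh 10x 2 held 115 Isg15 UMIs and those of BD 1 held 9, with 0 in stored 10x and BD 2 (-3.35 ± 0.67, edgeR adjusted p = 0.00432). Ifit2 (42), Oasl1 (57), Rsad2 (34) and Cxcl9 (96) had UMIs in the gated cells of fresh 10x 2 alone. Within that library 2 cells held nearly all of them. Cell 6, an Xcr1 and Clec9a cell, carried 61 Isg15, 93 Cxcl9, 41 Oasl1 and 28 Rsad2 UMIs, and cell 5, the Ccr7 cell with Il12b, carried 50 Isg15, 25 Ifit2, 16 Oasl1 and 16 Usp18 UMIs. Their interferon-stimulated sums were 138 and 106 per 10000, and no other gated cell exceeded 12.6. The calls thus describe 2 cells of 1 library: without fresh 10x 2 the departures of Isg15, Oasl1, Cxcl9 and Cxcl10 changed sign and none was called. Without either BD library 0 genes were called by edgeR, with 123 at an unadjusted p under 0.05 without BD 1 and 122 without BD 2, and DESeq2 called 5 genes, 0 of them shared.

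Positive departures were called for Hspa1a, Hspa1b and Dusp1 of the 10 dissociation genes, together with Ifitm1 and Neat1. Neat1 read 1.34, 12.9, 3.01 and 2.32 UMIs per 10000 in the gated cells of fresh 10x 2, stored 10x, BD 1 and BD 2. In the other cells it read 13.3 to 20.7 on 10x and 1.93 and 1.87 on BD. Its departure thus comes with a difference among the other cells. Hspa1a read 7.77, 0.369, 8.71 and 12.3 per 10000 in the gated cells, in the same order, the stored 10x value being 1 UMI. In the other cells of these libraries it read 5.77, 1.63, 2.15 and 1.64, and in those of fresh 10x 1 3.15. Hspa1b read 1.64, 0, 8.36 and 9.38 UMIs per 10000 in the gated cells of fresh 10x 2, stored 10x, BD 1 and BD 2, against 1.99, 0.999, 2.49 and 1.92 in the other cells (2.69 ± 0.62, edgeR adjusted p = 0.0200). Hspa1a and Hspa1b are near-identical genes whose reads can be split between them. Without fresh 10x 2, Hspa1a and Hspa1b were still called and Dusp1 (2.62, edgeR adjusted p = 0.0595) was not. Ly6c2 departed by -3.12 ± 0.59 (edgeR adjusted p = 0.00221), with gated levels of 1.64, 6.27, 4.99 and 5.97 per 10000. In the other cells it read 0.00467 to 0.0131 per 10000 on 10x and 0.225 and 0.0821 on BD, so the departure comes with a difference among the other cells.

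**Figure D5:**
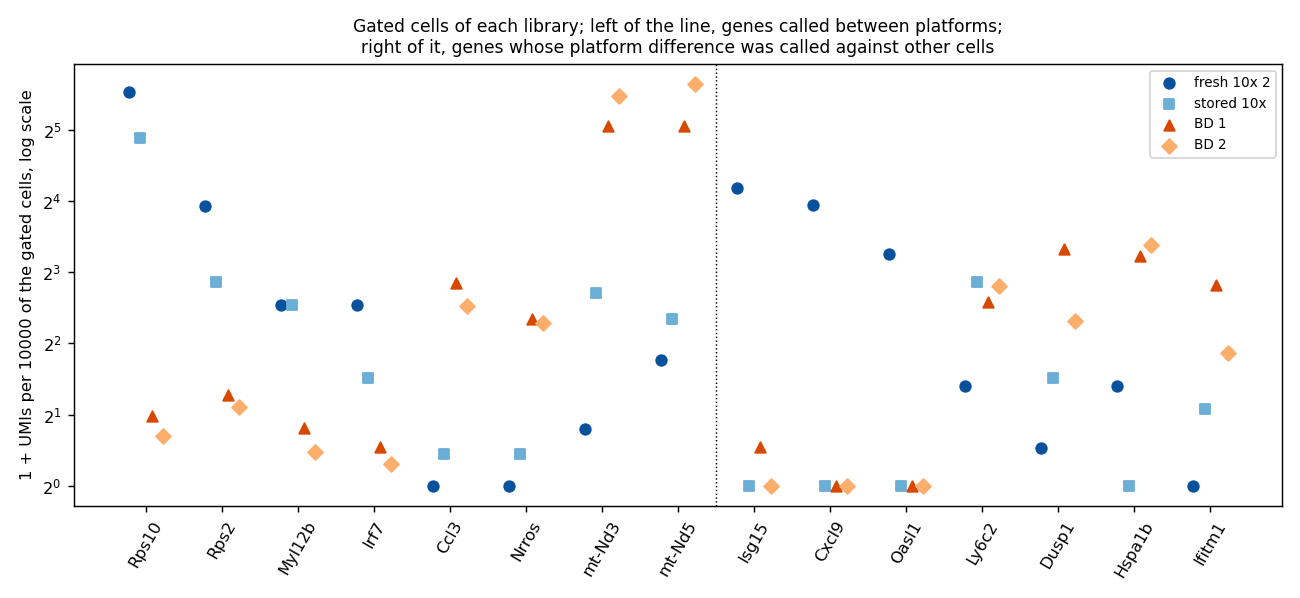
UMIs per 10000 of the gated cells of each library for 15 genes, as 1 + value on a log scale, with 1 point per library. To the left of the dotted line are genes called between platforms and to the right genes whose platform difference departed from that of other cells. Isg15, Cxcl9 and Oasl1 are high in fresh 10x 2 alone, and Rps10 and Rps2 are higher in both 10x libraries than in both BD libraries.

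Storage on 10x was left as values, since fresh 10x 2 with 7 gated cells and stored 10x with 4 are 1 library each. The class II genes summed to 600 per 10000 in the gated cells of fresh 10x 2 and 214 in stored 10x, and the plasmacytoid genes to 12.1 and 57.9. Of the 4 stored cells, 2 were of the Siglech kind and of the 7 fresh cells none was, so composition and storage cannot be told apart here. Between Xcr1 and Clec9a cells alone, the 5 fresh cells had class II sums of 479 to 660 per 10000 and the stored cell 429. Ccr7 cells entered no test because no library held 5 of them.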

How the data were processed

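Single-cell RNA sequencing of mouse mammary tumour digests gave 5 libraries. The authors deposited 8 matrices of raw UMI counts per gene and cell, of which 6 were read here. Counts are whole numbers that sum to a different total in each cell, per the file headers and values. The submitters' processing notes name Cell Ranger 3.0.1 and mm10, with no role given, and it is not stated whether the tool made the BD Rhapsody matrices. Symbols spelled in 2 ways between matrices were merged, which left 41028 names. Library totals were 29166129 to 59957945 UMIs.

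The members, the subsets and the gene lists were chosen with earlier results of these data known. UMIs were summed over gated cells per library, or per library and subset with at least 5 cells. Sums were tested with edgeR 4.0.16 in R 4.3.3 (TMM scaling, filterByExpr, glmQLFit, glmQLFTest, Benjamini-Hochberg adjusted p under 0.05). The SE is the log2 difference divided by the root of the F statistic. The 5 genes of the gate and the genes used for exclusion entered library sizes but no test. DESeq2 1.42.0, other scalings, filters, gates and left-out libraries were alternatives. The platform and subset fits were run on simulated counts with the same spread for all genes. Sums in which a single cell holds most UMIs of a gene were not simulated, nor was the comparison with other cells.

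The design foresaw gated cells in 5 libraries. Fresh 10x 1 held none, so the platform comparison uses 4 sums and the comparison with other cells 9. The storage comparison and both comparisons of Ccr7 cells could not be fitted. Named genes were, in each test, the 5 called genes with the largest log2 difference in each direction and at least 20 UMIs (for the platform, with UMIs on both), all called members of the lists, and the 20 genes with the highest lowest ratio against other cells over the 4 libraries with gated cells. Other genes named, and single cells, were chosen after their values were seen. A few called genes are not reported here.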

Additional observations from a re-analysis of the deposited data

Results flagged for a closer look

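A total of 14 genes had a platform difference in the gated cells that departed from that in the other cells of the same libraries (edgeR interaction test over 16064 genes). The interferon-stimulated genes among them rest on 2 cells of fresh 10x 2.

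The pooled fresh 10x matrix holds 2518 cells that are in no matrix of a single sample, and 4 of these met the gate, 0.159% with an exact 95% interval of 0.0433 to 0.406. These cells enter no comparison above. Of the 4, 3 were Cd209a cells and 1 was an Xcr1 and Clec9a cell with 3 Xcr1, 3 Clec9a, 13 Irf8 and 18 Naaa UMIs. A Cd209a cell among them had 5 Siglech, 8 Ccr9 and 6 Tcf4 UMIs with 0 of Naaa, while the per-sample fresh 10x matrices held no gated cell with more than 1 Siglech UMI.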

How the results depend on the processing

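The shares kept their order between fresh 10x 2 and stored 10x and between the BD libraries and stored 10x under a gate of 3 UMIs and a mitochondrial limit of 20%. Thinning to 2000 UMIs gave 0.114% in fresh 10x 2 and 0.239% in BD 2. Against 25 genes called between platforms, DESeq2 called 84, no filter on low counts 124, a gate of 3 UMIs 11, and Xcr1 and Clec9a cells alone (added after seeing the data, 1 10x library against 2) 304, with 20 of the 25 shared. Leaving out 1 library gave 22 to 595, the highest without stored 10x and 204 without fresh 10x 2. For the departure from other cells, 14 genes became 5 with DESeq2 and 0 to 70 with a library left out, 70 without stored 10x, 6 without fresh 10x 2 and 0 without either BD library. Without fresh 10x 2 the fitted log2 departure was 0.19 for Oasl1, 3.04 for Cxcl9, 10.74 for Cxcl10 and 12.95 for Isg15, each with edgeR adjusted p = 1 and few counts behind it. Their lowest values with a library left out were -16.21 (Oasl1) and -16.33 (Cxcl9) without stored 10x and -15.32 (Cxcl10) and -14.77 (Isg15) without BD 1. For Cd209a against Xcr1 and Clec9a cells, 125 genes became 10 with DESeq2, 30 without the library term, 48 without cells of 6 or more Siglech UMIs, and 105 without fresh 10x 2. Leaving out fresh 10x 2, which has no Cd209a sum, is not an independent check of this difference. The subset comparison could not be fitted without BD 1 or BD 2, nor could BD 1 against fresh 10x alone. No alternative was run for storage or for Ccr7 cells, whose main comparisons could not be fitted. The cause of these shifts was not tested. Among named genes, 15 calls held with DESeq2 and 42 were lost, while 70 held with RLE size factors and 1 was lost. No paired analysis of the platforms was made, since the sample titles link no 10x library to a BD library. The subset comparison was fitted with the library as a term throughout, save where stated. With 50 cells, a gene under a few UMIs in a subset cannot be told from absent.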
